A study of Mus musculus with 2 samples.

Results

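The extracellular matrix genes described here encode the collagens, the laminins and nidogens, 8 further matrix proteins (Fn1, Thbs1, Sparc, Dcn, Lum, Postn, Fbn1 and Eln), the matrix metalloproteinases (Mmp), the Adamts proteases and the tissue inhibitors of metalloproteinases (Timp). They were chosen by symbol alone, and 78 of the 15169 genes in the deposited table met the rule. Symbols that begin in the same way but continue further (Adamtsl1, Adamtsl2, Adamtsl4, Adamtsl5 and Col4a3bp) were left out. They were measured by single-cell RNA sequencing in droplets, in kidneys of wild-type C57BL/6 mice aged 9 weeks, 1 library from an IRI kidney and 1 from a control kidney. In the IRI group 1 kidney was made ischaemic and reperfused and the contralateral kidney was removed, whereas the control group is labelled normal. No nephrectomy is named for the control and no time after injury is given, so effects of ischaemia and of nephrectomy cannot be told apart. A single library stands for each group, so variation among mice is not measured, no test was made, and each comparison describes these 2 libraries.

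The matrix of the kidney has 2 main forms. Basement membranes are thin sheets under tubule cells and around capillaries, built from networks of collagen IV and laminin that nidogens link together. The interstitial matrix between tubules holds fibrils of collagens I, III and V, made by fibroblasts and pericytes, with proteins such as decorin that bind the fibrils. After injury, fibroblasts can become contractile myofibroblasts that lay down fibrillar collagen, and persistent deposition is called fibrosis. Mmp enzymes cut collagens, elastin and other matrix proteins, Adamts enzymes cut proteoglycans and process procollagens, and Timp proteins bind and block these enzymes.

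Promoters are shown for 2 pairs of genes that were high in the same cell types in the results below, the collagen IV chains Col4a1 and Col4a2 and the proteases Mmp12 and Mmp13. The sequences are the 250 bases before the annotated start of each gene, 5′ to 3′ on the strand of the gene, from RefSeq on GRCm38.p6. Of the 78 genes, 50 have an entry in that promoter table. Capitals mark matches, on either strand, to CCAAT (33.9% of 32841 promoter windows of that length hold it), GGGCGG (32.7%), TATAAA (12.4%) and TGANTCA (6.75%), the last being the form bound by AP-1 proteins.
Col4a1, chr8:11312827-11313076, minus strand: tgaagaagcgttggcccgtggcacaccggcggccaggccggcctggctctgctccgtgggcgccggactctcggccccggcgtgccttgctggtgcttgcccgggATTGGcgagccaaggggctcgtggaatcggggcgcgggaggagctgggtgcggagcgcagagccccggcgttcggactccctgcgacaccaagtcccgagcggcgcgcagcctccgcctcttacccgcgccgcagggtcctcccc
Col4a2, chr8:11312555-11312804, plus strand: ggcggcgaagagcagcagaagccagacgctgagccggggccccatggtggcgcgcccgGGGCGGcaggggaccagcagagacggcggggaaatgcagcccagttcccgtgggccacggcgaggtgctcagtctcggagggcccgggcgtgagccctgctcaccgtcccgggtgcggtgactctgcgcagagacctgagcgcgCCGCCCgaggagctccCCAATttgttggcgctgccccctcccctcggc
Mmp12, chr9:7347124-7347373, plus strand: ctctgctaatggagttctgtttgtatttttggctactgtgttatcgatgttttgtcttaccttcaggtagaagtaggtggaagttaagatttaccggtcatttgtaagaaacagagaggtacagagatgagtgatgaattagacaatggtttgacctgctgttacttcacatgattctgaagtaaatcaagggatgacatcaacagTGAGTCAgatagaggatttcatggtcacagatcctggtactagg
Mmp13, chr9:7272264-7272513, plus strand: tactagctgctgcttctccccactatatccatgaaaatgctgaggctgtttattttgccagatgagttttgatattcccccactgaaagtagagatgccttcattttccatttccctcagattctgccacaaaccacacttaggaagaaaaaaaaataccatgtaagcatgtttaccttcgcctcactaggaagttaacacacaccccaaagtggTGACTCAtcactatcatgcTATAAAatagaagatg
Col4a1 and Col4a2 lie head to head on opposite strands of chromosome 8, and the annotated first 22 bases of both genes overlap. The Col4a1 window holds 1 CCAAT and the Col4a2 window 1 CCAAT and 2 GGGCGG. Mmp12 and Mmp13 both lie on the plus strand of chromosome 9. The Mmp13 window holds a TGANTCA match at position -35 and TATAAA at position -16, counted back from the start. Mmp12 has 2 annotated starts, and the window shown holds a TGANTCA match at position -44, while the window of its other start holds none of the 4 motifs. These matches describe letters in the windows only.

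Values are mean depth-corrected counts per cell, which the authors' software scales so that cells of unequal sequencing depth become comparable. They are not raw molecule counts, so no interval is given for a mean. The share of cells above 0 is given with its exact 95% interval (Clopper-Pearson), and a ratio of such shares with an exact conditional 95% interval; both cover counting error only. The IRI library held 5170 cells with 16816996 raw UMIs (molecule tags; median 1888.5 per cell), and the control library held 6589 cells with 24169073 raw UMIs (median 2344). The 2 libraries share 55 cell barcodes. As a measure of free RNA in droplets, 52 of the 78 genes in 166 IRI lymphocytes and 65 of the 78 in 86 control lymphocytes were at 0. The number at 0 also depends on how many cells were counted. In B cells 8 proximal tubule markers summed to a mean of 2.30 in IRI and 7.33 in control cells, and in T cells to 1.87 and 7.07. By contrast, 8 macrophage markers summed to 0.275 in IRI and 0 in control B cells, and to 0.536 and 0.136 in T cells. Cell type names are those of the deposited annotation.

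Of the 78 genes, 64 had at least 10 summed counts over both libraries and 60 had counts in both. All 9 basement membrane collagens (types IV, VIII, XV and XVIII), 8 of 8 matrix glycoproteins and elastic fibre genes, 12 of 13 laminins and nidogens and 7 of 8 fibrillar collagens were among the 64. So were 10 of 13 other collagens, 3 of 4 Timp genes, 8 of 12 Mmp genes and 7 of 11 Adamts genes. The 14 genes below that level were Col17a1, Col20a1, Col23a1, Col24a1, Lamc3, Timp4, Mmp2, Mmp7, Mmp17, Mmp19, Adamts4, Adamts7, Adamts14 and Adamts16. Mmp2, a gelatinase commonly made by fibroblasts, summed to 1 count in the IRI and 5 in the control library.

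Stromal cells held the highest level of most matrix genes. Among genes with at least 10 counts in a library, 29 of 50 in the IRI library and 29 of 49 in the control library had their highest mean in the cells annotated Myofibroblast. Types with under 20 cells in a library were not ranked, among them the 19 Cx3cr1+ macrophages of the IRI library. The vasculature held the highest mean of 6 in the IRI library and 8 in the control library. Outside stroma and vasculature, 3 genes had the same leading type in both libraries among the ranked types. The laminin chain Lamb3 was highest in B cells, the fibrillar collagen Col27a1 was highest in the first proximal tubule segment (PT-S1), and Fn1 was highest in Ccr2+ macrophages. Mmp12 and Mmp13 led in Cx3cr1+ macrophages of the control library and could not be ranked in that type in the IRI library. A mean of at least 0.2 in some cell type was reached by 40 of the 78 genes.

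**Figure D1:**
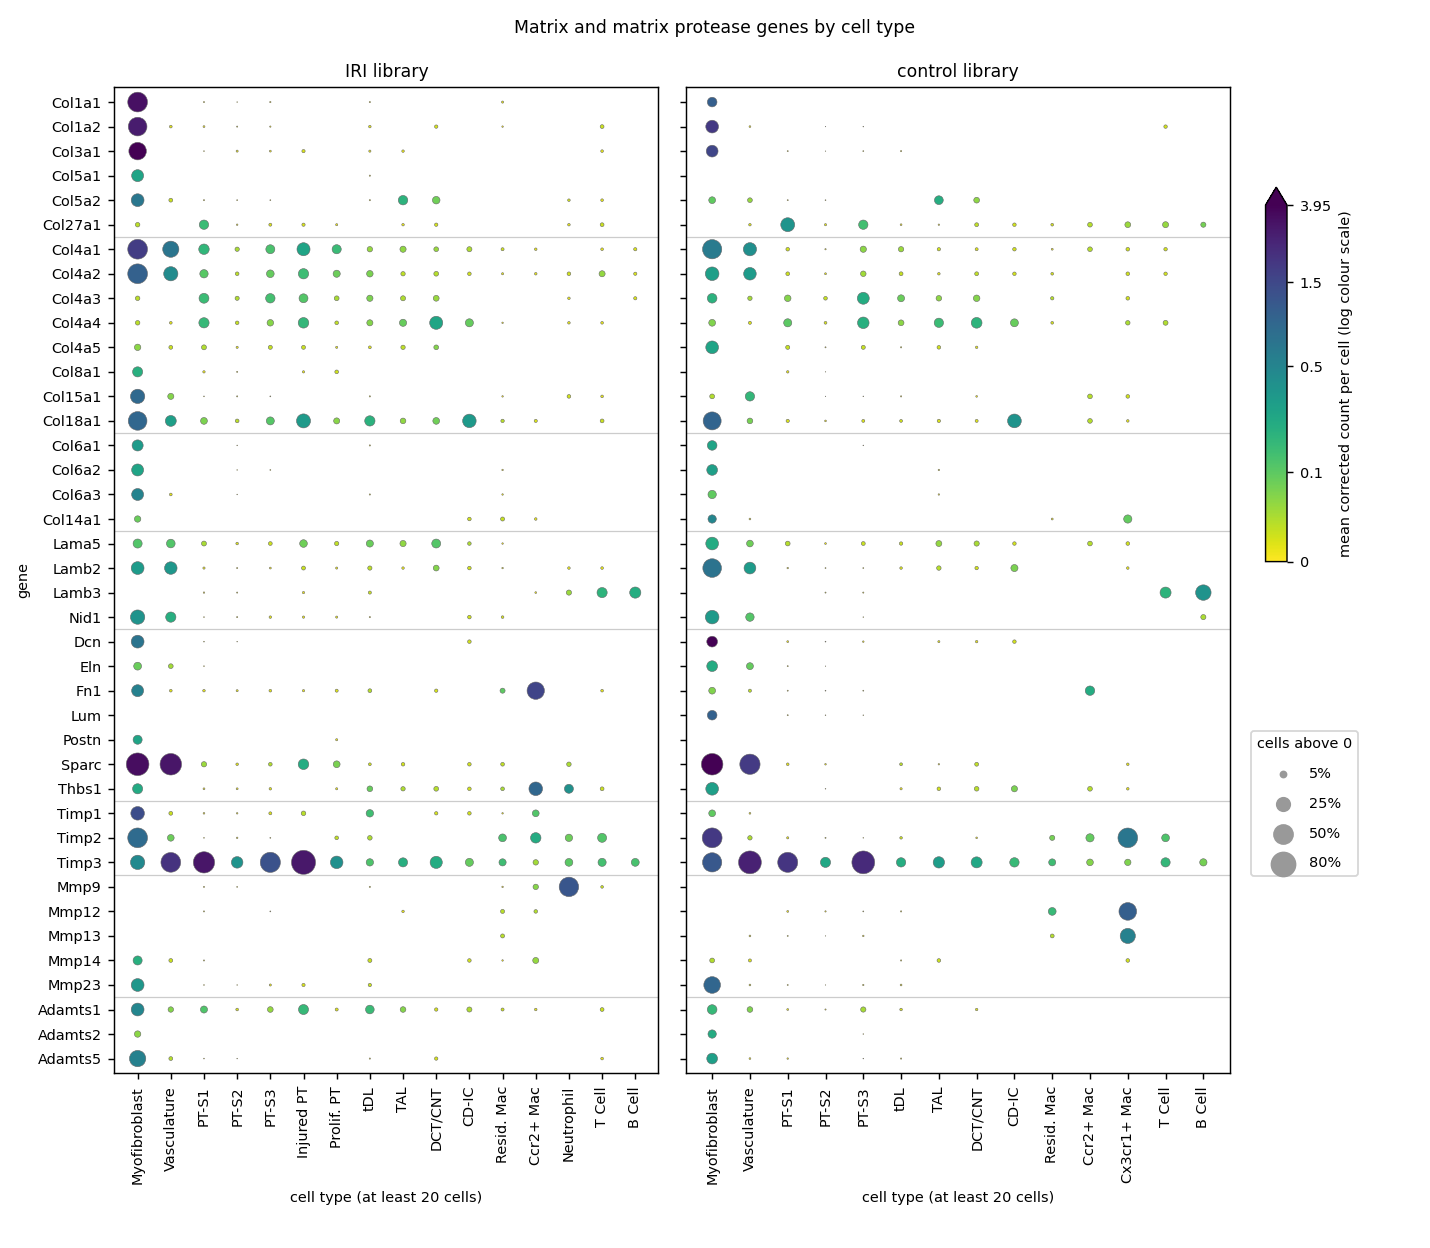
Mean corrected count (colour, log scale) and share of cells above 0 (dot area) of the 40 genes with a mean of at least 0.2 in a cell type, in every cell type with at least 20 cells of the IRI library (left) and the control library (right); rows are grouped by protein family. Col1a1, Col1a2 and Col3a1 are nearly restricted to the Myofibroblast column, Col4a1, Col4a2, Col18a1 and Timp3 also appear in tubule columns, and Mmp9, Mmp12 and Mmp13 appear in neutrophil and macrophage columns.

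The cells annotated Myofibroblast numbered 35 in the IRI and 31 in the control library and are a mixed stromal cluster. The 10 myofibroblast and pericyte markers summed to a mean of 8.11 in IRI cells (Cspg4 at 0) and 19.2 in control cells (Pdgfra at 0). Acta2, the smooth muscle actin that marks myofibroblasts and vascular muscle cells, was above 0 in 14 of 35 IRI cells and 13 of 31 control cells. Rgs5, a pericyte marker, was above 0 in 6 IRI and 13 control cells. At least 2 podocyte markers were found in 1 IRI cell and 5 control cells, and Ren1, the renin of juxtaglomerular cells, reached at least 10 in 0 IRI and 3 control cells. The 6 podocyte markers summed to a mean of 0.429 in IRI cells (3 of 6 at 0) and 2.45 in control cells (none at 0). The 8 proximal tubule markers summed to 3.17 in IRI cells (none at 0) and 10.6 in control cells (Slc5a12 at 0), and their part in the results below was not tested. Median depth was 2321 raw UMIs in IRI cells and 2636 in control cells.

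More IRI stromal cells held fibrillar collagen. Any of Col1a1, Col1a2 and Col3a1, the main chains of collagens I and III, was above 0 in 20 of 35 IRI cells (57.1%, 39.4 to 73.7) and 9 of 31 control cells (29.0%, 14.2 to 48.0), and all 3 together in 14 IRI cells (40.0%, 23.9 to 57.9) and 3 control cells (9.68%, 2.04 to 25.8). Both pairs of intervals overlap. The control cells with any of the 3 chains all had 1770 or more raw UMIs, whereas such IRI cells went down to 397. Corrected totals were at least 1468 in every cell, so counts of cells below that depth were scaled up. The part of depth in these shares was not tested.

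Col1a1 averaged 3.29 in IRI stromal cells and 1.03 in control stromal cells, a log2 ratio of 1.62. It was above 0 in 19 IRI cells (54.3%) and 4 control cells (12.9%), a share ratio of 4.21 (1.40 to 17). The highest IRI cells had 24, 11, 9 and 8 counts, and the 4 control cells had 18, 11, 2 and 1, so the highest control cell lay within the IRI range while most control cells were at 0. No lymphocyte of either library held Col1a1.

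Col3a1 averaged 5.49 in IRI and 1.55 in control stromal cells (log2 ratio 1.79), in 15 IRI and 6 control cells (share ratio 2.21, 0.812 to 6.97). The highest IRI cells had 58, 23, 18 and 17 counts, against 29, 15, 1 and 1 in the control. Without the highest cell of each library the means were 3.94 in IRI cells and 0.633 in control cells. Col1a2, the second chain of collagen I, averaged 2.83 in IRI and 1.87 in control cells, less than 2-fold apart, in 17 IRI and 7 control cells. The 2 libraries thus overlapped in the values of single cells for all 3 genes.

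**Figure D2:**
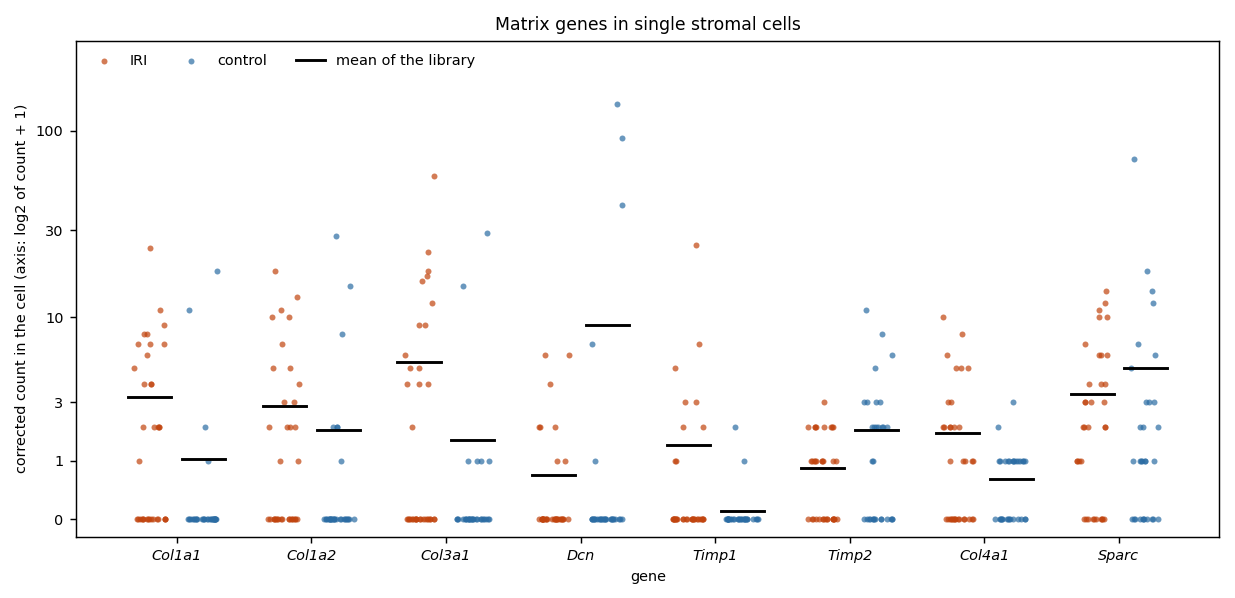
Corrected count of 8 matrix genes in each stromal cell, IRI left and control right of each gene (points, jittered sideways; the axis is log2 of the count plus 1), with the mean of each library as a black bar. Col1a1 is above 0 in 19 IRI and 4 control cells, and the control mean of Dcn rests on cells with 138, 92 and 41 counts.

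Over all measured matrix genes of the stromal cells, 10 of 28 were at least 2-fold higher in the IRI library, beside 6.22% of all genes measured there, and 9 of 28 were at least 2-fold lower, beside 19.9% of all genes. The share of genes lower is thus nearer to its background than the share higher. The median log2 ratio was 0.05 for the 28 genes and -0.29 for all 2121 measured genes. Under a trimmed mean scaling, with a shift of -0.35 on the log2 scale, 11 were higher and 4 lower. Without the cells holding at least 2 podocyte markers or a Ren1 value of at least 10, which leaves 34 IRI and 23 control cells, 9 were higher and 5 lower. The 28 passed a filter on summed counts, so these counts describe the genes that could be measured.

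The 10 genes higher in IRI stroma were, besides Col1a1 and Col3a1, the fibril chain Col5a2, the microfibril chain Col6a3, the basement membrane chains Col4a1, Col4a2 and Col15a1, the adhesive glycoprotein Fn1, the inhibitor Timp1 and the protease Adamts1. Col15a1, a collagen of the outer face of basement membranes, averaged 0.857 in IRI and 0.0323 in control cells (log2 ratio 3.46), in 10 IRI cells and 1 control cell. Its share ratio was 8.86 (1.26 to 384). Timp1 averaged 1.40 in IRI and 0.0968 in control cells (log2 ratio 3.30), in 9 IRI and 2 control cells, and its share ratio interval included 1. A single IRI cell, with 480 raw UMIs, held 25 of the 49 Timp1 counts, and the IRI mean without it was 0.706.

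Fn1, fibronectin, averaged 0.543 in IRI and 0.0645 in control stromal cells (log2 ratio 2.37). Col5a2 averaged 0.657 in IRI and 0.0968 in control cells (log2 ratio 2.27), with 12 of its 23 IRI counts in 1 cell. Col6a3 had means of 0.514 in IRI and 0.0968 in control cells. Share ratios of these 3 genes ran from 2.07 to 3.54, and each interval included 1.

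Col4a1 averaged 1.77 in IRI and 0.613 in control stromal cells (log2 ratio 1.46), although nearly the same share of cells held it, 19 IRI cells (54.3%) and 16 control cells (51.6%). Col4a1-positive IRI cells reached 10 counts and control cells 3. Its partner chain Col4a2 averaged 1.00 in IRI and 0.290 in control cells (log2 ratio 1.63), in 19 IRI and 8 control cells. Adamts1, a secreted protease that cuts versican and aggrecan, averaged 0.486 in IRI and 0.161 in control cells, and its log2 ratio of 1.34 was 0.96 without the podocyte-marker and high-Ren1 cells. The share ratio intervals of Col4a1, Col4a2 and Adamts1 included 1.

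Col5a1, Col8a1 and Postn were seen in IRI stromal cells and in no control stromal cell. Col5a1, the partner chain of Col5a2, was in 7 IRI cells, Col8a1, a short-chain collagen, in 5, and Postn, periostin, a matrix protein often raised in fibrosis, in 4. Each summed to 7 to 9 counts, below the 10 set for a ratio, and the 31 control cells allow a share of up to 9.68%.

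Dcn and Lum, the small proteoglycans decorin and lumican that bind collagen fibrils, were lower in IRI stroma. Dcn averaged 0.686 in IRI and 9.00 in control cells, a log2 ratio of -3.62, yet more IRI cells held it (8 against 5). The control counts were 138, 92, 41, 7 and a single count, and the IRI counts were at most 6. All 8 Dcn-positive IRI cells also held a fibrillar collagen chain, as did 3 control cells. Lum was at 0 in all 35 IRI cells, so that a share of up to 8.57% is possible, and had 11, 8, 7 and 5 counts in 4 control cells (mean 1.00), at least 11.7-fold lower in IRI against a floor of 3 counts over the group. Cells with the strongest Dcn signal were thus few. A further 4 Lum counts lay in control proximal tubule cells.

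Further genes lower in IRI stroma were Col14a1, a fibril-associated collagen (0.0857 in IRI and 0.484 in control, log2 ratio -1.98), and Col4a5, a chain of the mature collagen IV network of the glomerulus and tubules (0.0571 and 0.258, log2 ratio -1.52). Col4a5 rested on 2 counts in IRI and 8 in control cells, near the limit of 10 summed counts. Leaving out a few cells can thus take it below that limit. Mmp23, a membrane-bound metalloproteinase, averaged 0.343 in IRI and 0.903 in control cells. Timp2 averaged 0.829 in IRI and 1.87 in control cells, in 19 IRI and 17 control cells. Timp3 averaged 0.457 in IRI and 1.16 in control cells. The laminin chain Lamb2, which is part of the glomerular basement membrane, averaged 0.314 in IRI and 0.710 in control cells, and elastin (Eln) 0.0857 and 0.226. The log2 ratios of Mmp23 (-1.28), Timp3 (-1.26), Timp2 (-1.13), Lamb2 (-1.06) and Eln (-1.02) shrank to between -0.75 and -0.96 under the trimmed mean scaling. Without the podocyte-marker and high-Ren1 cells they were -0.80 for Mmp23, -0.89 for Timp3, -1.43 for Timp2, -0.82 for Lamb2 and -1.36 for Eln, so Mmp23, Timp3 and Lamb2 then missed the 2-fold limit. All share ratio intervals of the genes lower in stroma included 1.

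**Figure D3:**
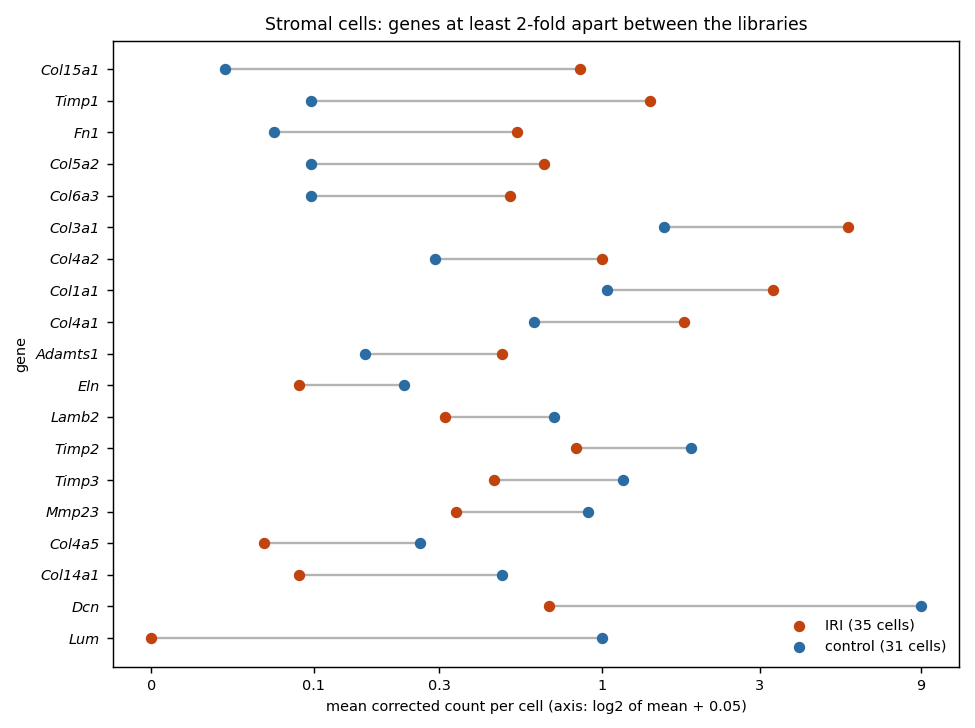
Mean corrected count per stromal cell in 35 IRI cells (orange) and 31 control cells (blue) for the 19 matrix genes at least 2-fold apart; the axis is log2 of the mean plus 0.05, and genes run from the highest to the lowest IRI over control ratio. Col15a1 and Timp1 lead the genes higher in IRI, and Dcn and Lum end the genes lower in IRI.

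Sparc, a collagen-binding glycoprotein abundant in mesenchyme and endothelium, was nearly level in the stroma, with means of 3.43 in IRI and 5 in control cells, and 71 of the 155 control counts were in 1 cell. Col18a1, whose fragment is endostatin, averaged 0.886 in IRI and 0.935 in control stromal cells. Nid1, nidogen, averaged 0.371 in IRI and 0.323 in control cells, and Adamts5, an aggrecan-cutting protease, 0.543 in IRI and 0.290 in control cells. None of these 4 genes reached 2-fold.

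In the vasculature (96 IRI and 222 control cells), 1 of 21 measured matrix genes was at least 2-fold higher in IRI, beside 1.56% of all genes, and 1 was lower, beside 4.37% of all genes. Col18a1 averaged 0.292 in IRI and 0.0721 in control cells (log2 ratio 1.48), in 16.7% of IRI cells (9.84 to 25.6) and 4.50% of control cells (2.18 to 8.13). Col13a1, a transmembrane collagen, was at 0 in the 96 IRI cells and above 0 in 13 control cells (mean 0.0676), at least 2.16-fold lower in IRI. Sparc averaged 3.05 in IRI and 1.81 in control cells, Col4a1 0.677 and 0.410, and Timp3 2.06 and 2.61, all under 2-fold. The laminin chains stayed close, with Lamb2 at 0.344 in IRI and 0.315 in control cells, Lamc1 at 0.146 and 0.149, and Lama4, the endothelial alpha chain, at 0.0833 and 0.0901.

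Tubule cells of the 3 proximal segments (3261 IRI and 4827 control cells) held collagen IV chains, Timp3 and the fibrillar collagen Col27a1. Across the 3 segments 1 of 37 measured matrix genes, Col4a1, was at least 2-fold higher in IRI, beside 0.41% of all genes, and 0 were lower, beside 0.762%. Col4a1 averaged 0.101 in IRI and 0.0213 in control cells (log2 ratio 1.08), in 8.56% of IRI cells and 2.01% of control cells, a share ratio of 4.26 (3.37 to 5.42). With 0.1 in place of 0.05 added to each mean its log2 ratio was 0.73.

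In PT-S1, the first segment (989 IRI and 600 control cells), 3 of 21 genes were at least 2-fold higher, beside 0.675% of all genes, and 1 was lower, beside 0.424%. Col4a1 averaged 0.173 in IRI and 0.0183 in control cells (log2 ratio 1.71), in 15.3% of IRI cells (13.1 to 17.7) and 1.83% of control cells (0.919 to 3.26). Col4a2 averaged 0.105 in IRI and 0.0200 in control cells (log2 ratio 1.15), with a share ratio of 4.85 (2.65 to 9.72). Adamts1 averaged 0.116 in IRI and 0.00667 in control cells (log2 ratio 1.55), in 69 IRI and 3 control cells. The direction for Col4a1 was the same in PT-S2 (2.63% of IRI and 0.251% of control cells above 0) and PT-S3 (11.3% and 5.48%), and lymphocytes held it in 1.20% of IRI and 1.16% of control cells.

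Col4a3 and Col4a4, collagen IV chains of the mature network, were not higher in IRI cells of PT-S3 as Col4a1 was. Col4a4 averaged 0.161 in IRI and 0.102 in control cells of PT-S1, but 0.0608 in IRI and 0.203 in control cells of PT-S3 (log2 ratio -1.19, share ratio 0.320, 0.230 to 0.438). Col4a3, its partner chain, averaged 0.152 in IRI and 0.0633 in control cells of PT-S1, and 0.137 in IRI and 0.221 in control cells of PT-S3. In PT-S3, where 1 of 25 genes was at least 2-fold higher (1.09% of all genes) and 2 were lower (2.34%), the higher gene was Col18a1, at 0.109 in IRI and 0.0139 in control cells (log2 ratio 1.31, share ratio 7.20, 4.25 to 12.8). PT-S2 had 0 of 22 genes past 2-fold in either direction, beside 0.234% of all genes higher and 0.996% lower. Median depth in PT-S3 was 2338.5 raw UMIs in IRI and 4507.5 in control cells, and with at least 2000 raw UMIs the log2 ratios were -1.04 for Col4a4 and 1.59 for Col18a1. Without the clusters that came to over 90% from 1 library, the Col4a4 log2 ratio was -0.20 and that of Col18a1 1.18, so the lower Col4a4 level rested on those clusters.

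Col27a1, a fibrillar collagen best known from cartilage, was lower in IRI in both segments that hold it. It averaged 0.151 in IRI and 0.367 in control cells of PT-S1 (log2 ratio -1.05) and was above 0 in 12.2% of IRI cells (10.3 to 14.4) and 27.0% of control cells (23.5 to 30.7). In PT-S3 it averaged 0.0127 in IRI and 0.139 in control cells (log2 ratio -1.60), with a share ratio of 0.104 (0.0492 to 0.196). Lymphocytes held Col27a1 in 1.20% of IRI and 4.65% of control cells. The PT-S1 value was -0.89 under the trimmed mean scaling, and the PT-S3 value was -0.35 without the clusters that came to over 90% from 1 library.

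Timp3, which binds to the matrix and blocks Mmp and Adamts enzymes, had opposite differences in the first and last segments, both under 2-fold. It averaged 3.09 in IRI and 1.99 in control cells of PT-S1, 0.368 and 0.242 in PT-S2, and 1.27 and 2.33 in PT-S3. Timp3 was above 0 in 63.0% of IRI and 55.8% of control cells of PT-S1, and in 56.5% and 72.4% of those of PT-S3. The background in lymphocytes was 9.04% of IRI and 10.5% of control cells.

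The deposited clusters divide these segments further. In PT-S1, cluster 5 (501 IRI and 283 control cells) held most Timp3 and Col27a1, with Timp3 means of 5.54 in IRI and 3.86 in control cells and Col27a1 means of 0.279 and 0.767, whereas cluster 6 had Timp3 means of 0.570 and 0.326. In PT-S3, control-rich cluster 8 (455 control cells and under 20 IRI cells) had a control Timp3 mean of 4.52 and a control Col27a1 mean of 0.398. Cluster 3, shared by 727 IRI and 127 control cells, had Timp3 means of 1.29 in IRI and 1.40 in control cells and Col27a1 means of 0.0138 and 0.0315. The difference of whole PT-S3 thus moves with a cluster that came almost wholly from the control library. Cell state and library cannot be told apart there. Within shared clusters Col4a1 averaged 0.257 in IRI and 0.0353 in control cells of cluster 5, 0.0856 and 0.00362 in cluster 6, and 0.131 and 0.0157 in cluster 3. In cluster 4, with 58 IRI and 742 control cells, it averaged 0.0172 in IRI and 0.0404 in control cells, from 1 IRI cell.

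**Figure D4:**
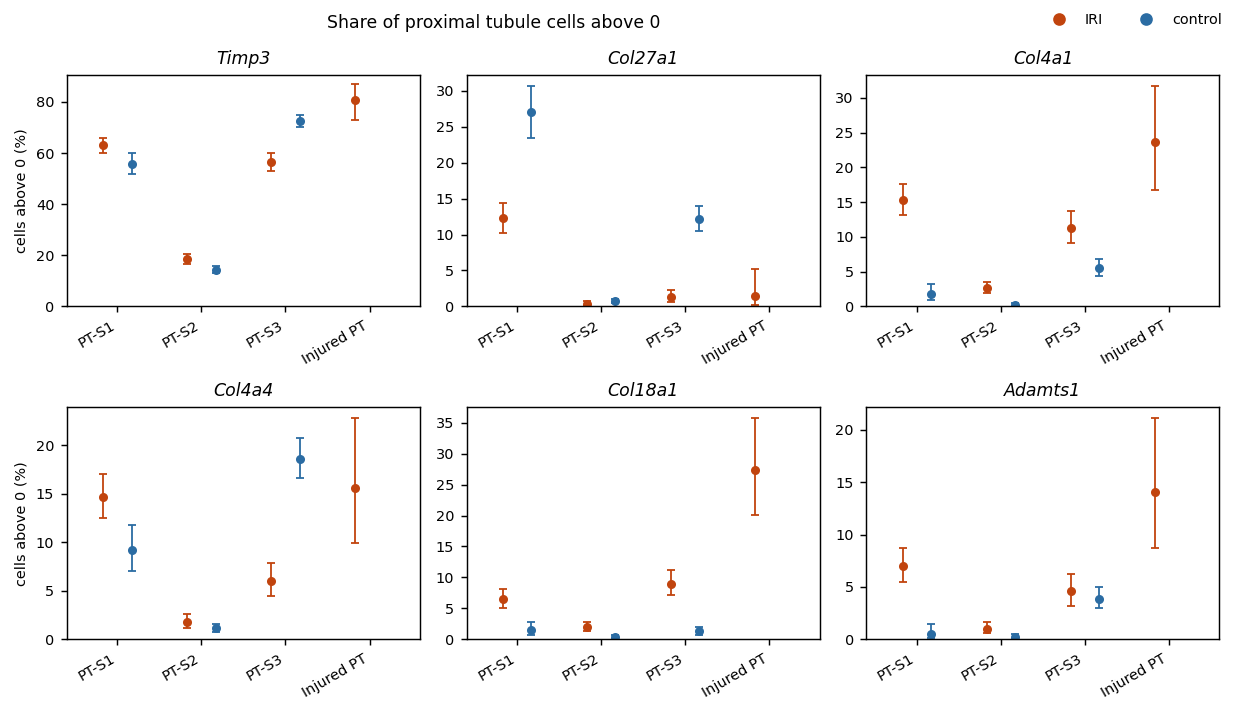
Share of proximal tubule cells above 0 for 6 matrix genes, by segment and library (IRI left, control right; bars are exact 95% intervals for counting error; Injured PT has IRI cells only). Col4a1 and Col18a1 are above the control in the IRI cells of all 3 segments, and Col27a1 is below it.

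The 135 cells annotated Injured PT came from the IRI library alone and were set against the 3261 IRI cells of the 3 segments. Of 29 measured matrix genes 5 were at least 2-fold higher in injured cells, beside 2.41% of all genes, and 0 lower, beside 1.48%. Sparc averaged 0.222 in injured and 0.0273 in other proximal tubule cells (log2 ratio 1.82, share ratio 7.46, 4.34 to 12.3). Col18a1 averaged 0.326 and 0.0598 (log2 ratio 1.78), in 27.4% of injured and 5.03% of other cells. Timp3 averaged 2.99 and 1.41, Col4a1 0.259 and 0.101, and Adamts1 0.163 and 0.0540. The other cells pooled segments of unlike level, and 1482 of them were PT-S2 cells with a median of 912 raw UMIs. IRI cells of PT-S1 alone averaged 3.09 for Timp3, 0.173 for Col4a1 and 0.116 for Adamts1. The Timp3 level of injured cells was thus no higher than that of PT-S1. Ratios against single segments were not taken. Injured cells had a median of 8267 raw UMIs and the other cells 1819. Among cells with at least 2000 raw UMIs, Sparc (1.58) and Col18a1 (1.48) kept log2 ratios over 1, while Adamts1 (0.54), Col4a1 (0.58) and Timp3 (0.30) did not. In the 155 proliferating proximal tubule cells of the IRI library Timp3 averaged 0.4, a log2 ratio of -1.70 against the same pooled reference cells, the 1 of 28 genes past 2-fold there (0.88% of all genes lower, and 0 of 28 higher beside 1.53%). That mean lay close to the Timp3 mean of IRI PT-S2 cells given above.

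In the thick ascending limb (11 measured genes), the distal convoluted and connecting tubule (6), intercalated cells (3), T cells (4) and B cells (2) none did in either direction. The shares of all genes at least 2-fold higher and lower were 1.05% and 2.29% in the thick ascending limb, 2.22% and 4.78% in the distal convoluted and connecting tubule, 5.88% and 7.07% in intercalated cells, 2.88% and 3.37% in T cells and 9.1% and 4.79% in B cells. Col5a2 was found in the thick ascending limb at 0.188 in IRI and 0.210 in control cells, and Col18a1 in intercalated cells at 0.327 and 0.368. Cells annotated thin descending limb (tDL) came mostly from another cluster in each library, cluster 9 with 420 IRI and 36 control cells and cluster 11 with 20 IRI and 391 control cells, so their 5 of 20 genes higher in IRI (4.96% of all genes) and 0 lower (6.39%) compare different cells. Cells of cluster 9 differed in type markers too: thin limb and collecting duct markers summed to a mean of 0.867 in IRI and 9.47 in control cells, thick ascending limb markers to 3.29 and 0.639, and neutrophil markers to 1.63 and 0, and their part in the following values was not tested. Within cluster 9, Timp1 was above 0 in 34 IRI cells (8.10%) and 0 control cells (up to 8.33% is possible). By means, with a floor of 3 counts over the control cells, Timp1 was at least 1.8-fold higher in IRI. By shares, the control cells are too few to set a bound above 1. Col4a1 was above 0 in 17 IRI cells and Col4a2 in 24, and both in 0 control cells of cluster 9. Timp3 was lower in IRI cells of cluster 9 (0.124 in IRI and 0.472 in control cells), as were Sparc and Timp2, so 4 of 19 genes were higher (10.4% of all genes) and 3 lower (7.86%). For Col4a1 and Col4a2 the 36 control cells are too few to set a bound above 1.

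Macrophages differed in fibronectin, thrombospondin and 2 proteases. Of 16 measured matrix genes, 2 were at least 2-fold higher in 542 IRI than in 326 control macrophages, beside 2.46% of all genes, and 2 were lower, beside 2% of all genes. Fn1 averaged 0.683 in IRI and 0.0215 in control macrophages (log2 ratio 3.36), in 18.8% and 1.23% of cells (share ratio 15.3, 5.81 to 57.4). Thbs1, thrombospondin 1, which binds matrix and activates latent TGF-beta, averaged 0.384 in IRI and 0.00613 in control macrophages (log2 ratio 2.95), in 63 IRI and 2 control cells.

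Both genes lay mainly in the Ccr2+ macrophages, a type named for the receptor that draws monocytes into tissue (217 IRI and 32 control cells). Fn1 averaged 1.57 in IRI and 0.219 in control Ccr2+ cells and was above 0 in 41.9% (35.3 to 48.8) and 12.5% (3.51 to 29.0) of them. The cells differed in other markers as well: 8 macrophage markers summed to a mean of 44.4 in IRI (none at 0) and 18.3 in control Ccr2+ cells (C1qa and C1qb at 0), and 6 dendritic cell markers summed to 0.493 in IRI and 3.34 in control cells (none at 0 in either), whose part in these differences was not tested. Thbs1 averaged 0.899 in IRI and 0.0312 in control Ccr2+ cells, in 56 IRI cells and 1 control cell. Ccr2+ macrophages held 77.3% of all Fn1 counts and 59.1% of all Thbs1 counts of the IRI library. Of 8 measured genes 6 passed the 2-fold limit as higher in IRI Ccr2+ cells, beside 12.5% of all genes, and 0 as lower, beside 6.51%. For 4 of the 6 that rests on the added 0.05: Timp1, Mmp8, Mmp9 and Mmp14 were measured through IRI cells alone. They were at 0 in all 32 control cells (up to 9.38% is possible) and were above 0 in 14, 14, 9 and 11 IRI cells. The median log2 ratio of the 8 genes was 1.25, and 0.02 with genes at 0 set to their bound. By means, with a floor of 3 counts over the control cells, Timp1 was at least 1.23-fold higher, but by shares no bound above 1 could be set. For the 3 proteases the control cells are too few to set a bound above 1.

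Resident macrophages (306 IRI and 188 control cells) had less of both, and 1 of 6 measured genes was at least 2-fold higher in IRI (6.61% of all genes) and 1 lower (3.27%). Fn1 averaged 0.0980 in IRI cells and was at 0 in all control cells, at least 6.14-fold higher in IRI. Resident cells differed in type markers too. The 8 macrophage markers summed to a mean of 15.9 in IRI and 8.54 in control cells. The 8 proximal tubule markers summed to 6.08 in IRI and 19.7 in control cells (Slc5a12 at 0 in the control). Their part in the Fn1 difference, and in that of Mmp12 below, was not tested. Within the IRI library, Ccr2+ over resident macrophages gave log2 ratios of 3.45 for Fn1 and 3.41 for Thbs1, and 5 of 10 genes were at least 2-fold higher (20.3% of all genes) and 1 lower (2.22%). Median depth was 7177 raw UMIs in IRI Ccr2+ cells and 799.5 in IRI resident cells. Among 216 Ccr2+ and 114 resident IRI cells of 1000 raw UMIs or more, the log2 ratios were 2.74 for Fn1 and 3.21 for Thbs1.

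Mmp12, macrophage elastase, and Mmp13, a collagenase, were lower in IRI macrophages. Mmp12 averaged 0.0646 in IRI and 0.429 in control macrophages (log2 ratio -2.07), and Mmp13 averaged 0.0203 and 0.196 (log2 ratio -1.81). Cx3cr1+ macrophages, of which there were 19 in the IRI and 106 in the control library, held 71% of Mmp12 counts and 80.6% of Mmp13 counts of the control library. Within that type Mmp12 averaged 1.00 in IRI and 1.04 in control cells, from 3 IRI cells and 46 control cells. Mmp13 averaged 0.105 in IRI and 0.547 in control Cx3cr1+ cells, from 1 IRI cell and 34 control cells (5.26%, 0.133 to 26.0, and 32.1%, 23.3 to 41.8). The 19 IRI cells are too few to show whether levels within the type differ, and the part of cell numbers in the lower level over all macrophages was not tested. In resident macrophages Mmp12 averaged 0.0294 in IRI and 0.160 in control cells (share ratio 0.269, 0.0935 to 0.691). No lymphocyte held Mmp12 or Mmp13. Timp2, an inhibitor that also takes part in activating Mmp2, was above 0 in 6 of 19 IRI and 57 of 106 control Cx3cr1+ cells.

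**Figure D5:**
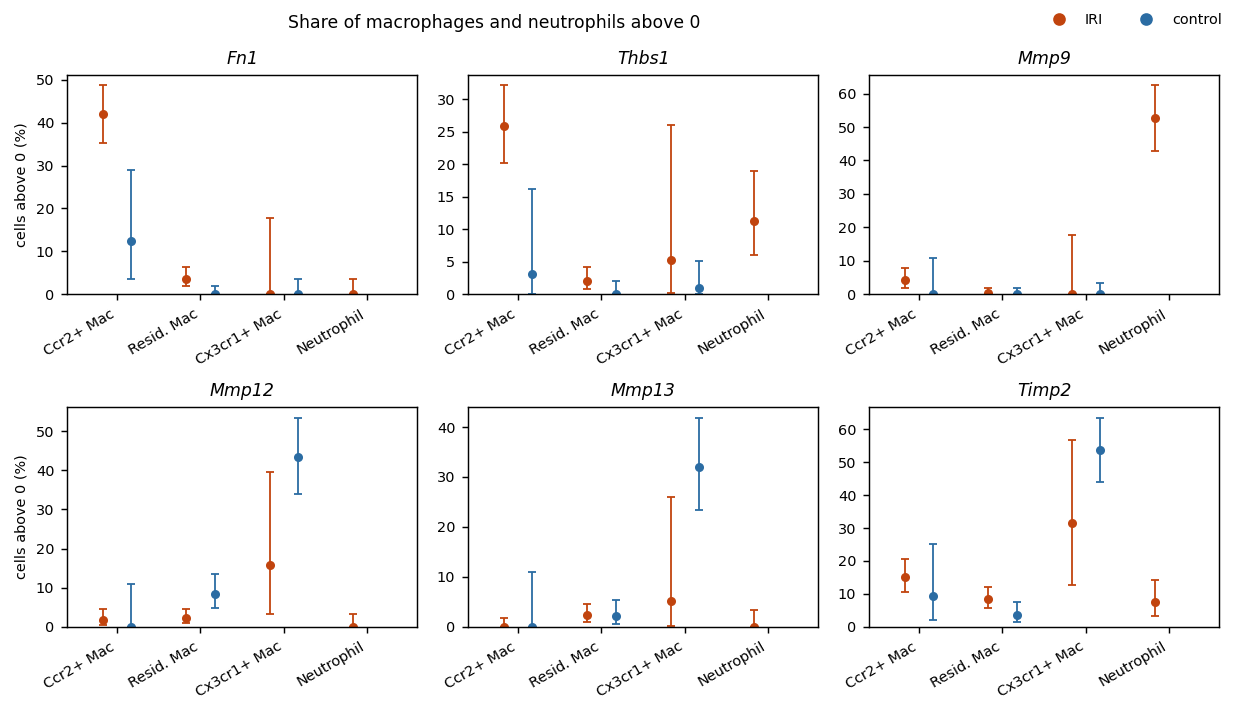
Share of macrophages and neutrophils above 0 for 6 matrix genes, by cell type and library (IRI left, control right; bars are exact 95% intervals for counting error; the control library had too few neutrophils to plot). Fn1 and Thbs1 are highest in IRI Ccr2+ macrophages, Mmp9 in IRI neutrophils, and Mmp12 and Mmp13 in control Cx3cr1+ macrophages.

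Neutrophils numbered 106 in the IRI and 2 in the control library, so no comparison was made. In the IRI cells Mmp9, the gelatinase stored in neutrophil granules, averaged 1.19 and was above 0 in 52.8% of cells (42.9 to 62.6), and neutrophils held 85.7% of the Mmp9 counts of the IRI library. Mmp8, neutrophil collagenase, was in 7 of 106 neutrophils and in 14 of 217 IRI Ccr2+ macrophages. Thbs1 was above 0 in 12 of 106 neutrophils, and Fn1 in 0. Median depth was 1451 raw UMIs in IRI neutrophils. Lamb3, a chain of laminin 332, averaged 0.217 in IRI and 0.370 in control B cells and 0.186 in both libraries' T cells. It was above 0 in 15.7% of IRI lymphocytes (10.5 to 22.1) and 22.1% of control lymphocytes (13.9 to 32.3), against 0.184% of IRI and 0.166% of control proximal tubule cells.

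Genes that make, modify or bind matrix were counted in 6 further lists, to be read beside the shares of all genes at least 2-fold higher and lower, 6.22% and 19.9% in stroma. In the stroma, 1 of 9 measured genes of collagen processing and crosslinking was at least 2-fold higher in IRI (Loxl1, a lysyl oxidase of elastic fibres, 0.371 in IRI and 0.0968 in control cells) and 1 lower (Pcolce, which speeds procollagen cleavage, 0.486 and 1.94). Serpinh1, the collagen chaperone, averaged 1.34 in IRI and 1.03 in control stromal cells. Of 15 other matrix proteins 2 were higher, Emilin1 (0.629 in IRI and 0.0968 in control) and tenascin C (Tnc, 0.914 and 0.258), and 2 lower, Fbln1 (0.2 and 1.03) and Ogn (0.0571 and 0.871). Of 5 genes of the TGF-beta list Tgfb1 was higher (0.4 in IRI and 0.0323 in control cells, in 7 cells and 1 cell) and Ltbp4, which binds latent TGF-beta, lower (0.114 and 0.355). Of 6 matrix receptors 0 were higher and 2, Itgav and Sdc4, lower. Of 4 plasminogen system genes Serpine2, a serine protease inhibitor, was higher (0.486 in IRI and 0.0323 in control cells), and the 1 measured gene of membrane proteases and regulators, Bsg, was lower.

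In macrophages, where 2.46% of all genes were higher and 2% lower, 3 of 4 plasminogen system genes were at least 2-fold higher in IRI, the urokinase receptor Plaur (0.205 in IRI and 0.0429 in control cells) and the plasminogen-binding pair Anxa2 (0.446 and 0.160) and S100a10 (0.697 and 0.267). Of 12 TGF-beta list genes Tgfbi was higher (0.856 in IRI and 0.365 in control) and Tgfbr1 (0.138 and 0.626) and Cyr61 (0.0129 and 0.0982) were lower. Vcan, versican, averaged 0.0609 in IRI macrophages and was at 0 in the control, at least 6.62-fold higher in IRI, and with Ecm1 it made 2 of 7 other matrix proteins. Tgm2 (1 of 8 processing genes), Cd44 (1 of 11 receptors) and Adam8 (1 of 7 membrane proteases and regulators) were also higher in IRI macrophages. Within Ccr2+ and within resident macrophages, 0 of 3 plasminogen system genes were higher in IRI (12.5% and 6.61% of all genes). Ccr2+ over resident cells of the IRI library gave 3 of 3 (20.3%). Cd44, Tgfbr1 and Cyr61 also passed 2-fold within neither type. Ccr2+ cells were 217 of 542 IRI and 32 of 326 control macrophages, and the part of this mix was not tested. In injured proximal tubule cells, where 2.41% of all genes were higher and 1.48% lower, 4 of 12 matrix receptors were at least 2-fold higher than in other IRI proximal tubule cells, the integrin chains Itgav (0.304 and 0.0849) and Itgb1 (0.230 and 0.0816), the collagen receptor Ddr1 (0.259 and 0.0524) and the hyaluronan receptor Cd44 (0.0741 and 0.00644). Of the other lists 3 of 6 plasminogen system genes, 4 of 11 other matrix proteins, 2 of 13 processing genes, 1 of 13 TGF-beta list genes and 0 of 6 membrane proteases and regulators were higher in injured cells, and none of any list lower. Injured cells were deeper (median 8267 raw UMIs against 1819), and these lists were not recounted among cells of at least 2000 raw UMIs or against single segments. Cyr61, a matricellular protein, averaged 0.521 in IRI and 0.0600 in control cells of PT-S1 (log2 ratio 2.38). Across the 3 proximal segments, where 0.41% of all genes were higher and 0.762% lower, Cyr61 was the 1 of 16 TGF-beta list genes past 2-fold, and 0 of 14 collagen processing genes, 13 matrix receptors, 7 plasminogen system genes, 7 membrane proteases and regulators and 13 other matrix proteins were.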

How the data were processed

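Single cells of 1 IRI and 1 control kidney were sequenced after digestion of the tissue with a Liberase and DNase mix for 25 min at 37 °C, per the labels' protocols. Per the submitters' processing notes, Cell Ranger 3.0.0, Seurat 3.2 and mm9 were used. The values in the deposited table are a score, not raw counts: whole numbers corrected for depth as SCTransform gives them, with totals of 1468 to 3212 per cell while raw UMIs run from 271 to 24680. The plan had assumed raw counts; no count model, test or interval of a mean was therefore used. The deposited residual table, also a score, served to check the annotation, which was deposited without separators and split by requiring the corrected total to match (11759 cells; for 3615 the digits of raw UMIs and genes could be parted in several ways, and the lowest UMI number with 200 or more genes and no more genes than UMIs was taken; raw UMIs followed the Top2a residuals with Spearman rho -0.998 across cells). Cells were not thinned, and doublets were not called.

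Means were taken per deposited cell type and library, and log2 ratios with 0.05 added to each mean, IRI over control, where both libraries have 20 or more cells of the type, and for genes with at least 10 summed counts; log2 ratios of scarce genes are drawn toward 0 by the added value. Called means at least 2-fold. Where a group is at 0, the bound uses 3 counts over the group. Named by rule were genes with a mean of at least 0.2 in a type, and per comparison those with a mean of at least 0.05 and a log2 ratio of at least 1 in size, at most 12 per direction (5 in other types). Values of further genes are given beside them. The genes, lists and markers were chosen with earlier results of these data known. The scripts for ratios and intervals were tested on simulated data. Alternatives were other added values, filters, fold limits, scalings, depth limits, free RNA subtraction and subsets of cells. Python 3.11.15, NumPy 2.4.6, SciPy 1.17.1 and pandas 2.3.3 were used; the promoter table is of another build than the files, so its coordinates belong to GRCm38.p6 only. Some items are not reported here.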

Additional observations from a re-analysis of the deposited data

How the results depend on the processing

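All 406 recomputed log2 ratios of named genes kept their direction, and 361 stayed within 1.5-fold of the reported value. For the 45 with 0.01 and the 45 with 0.1 added, the direction could not change by construction. The same holds for the 45 under the trimmed mean and the 45 under the median of gene ratios. Their largest shift was -0.49, and named genes were picked from these data for log2 ratios of at least 1 in size. Leaving out clusters over 90% from 1 library removed no macrophage, so those values repeat the reported ones. Counts moved by over 1.5 times as follows. In proximal tubule S1 to S3, higher genes numbered 5 with 0.01 and 0 with 0.1 added, 3 at 2000 raw UMIs, 4 at a 1.5-fold and 0 at a 3-fold limit, and lower genes 1 without clusters over 90% from 1 library. In macrophages, higher genes numbered 5 with 0.01 added, at 2000 raw UMIs and at 1.5-fold. In stroma, higher genes numbered 19 with at least 1 and 6 with at least 30 summed counts, and lower genes 4 under the trimmed mean, 3 at 3-fold and 5 without podocyte-marker and high-Ren1 cells (chosen after seeing the data, as was leaving out the highest cell). In vasculature, higher genes numbered 2 with 0.01 added, 4 at 2000 raw UMIs, 6 at 1.5-fold and 0 at 3-fold, and lower genes 2 with 0.01 added, under the median of gene ratios, cell proportions or free RNA subtraction, 3 at 1.5-fold, and 0 with 0.1 added, with 30 summed counts or at 3-fold. Injured proximal tubule had 2 higher and 1 lower gene at 2000 raw UMIs, and proliferating proximal tubule 4 lower. Causes were not tested, except that stricter limits keep fewer genes by construction. The trimmed mean moved the log2 scale by -0.19 in macrophages, -0.35 in stroma, -0.49 in Ccr2+ macrophages, -0.22 in PT-S1, -0.13 in PT-S3 and 0.21 in thin limb. Stroma had too few cells for limits of 2000 raw UMIs or 50 cells. No paired analysis was possible because each group has 1 library.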
